A study of Mus musculus with 46 samples.

Results

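The genes described here are 9 outputs of the circadian clock in mouse liver: Dbp, Tef and Hlf, which encode the PAR-bZIP activators, Nfil3, which encodes their repressor, Nr1d1 and Nr1d2, which encode the nuclear receptors REV-ERB alpha and beta, and Bhlhe40, Wee1 and Nampt. They were chosen by gene symbol, 9 of the 21335 genes with a symbol on the array. A probe set was to be selected on the highest mean log2 level over the arrays where a gene has several. Each of the 9 had a single probe set, so no difference between groups entered the choice of probe set. The genes themselves were chosen with earlier results of these data known. Liver RNA of 46 hairless SKH:QS mice was measured on Affymetrix whole-transcript arrays, 1 array per mouse, in an experiment on virgin mice and a separate one on pregnant mice (about day 17 of gestation). Each experiment had a nano ZnO arm (sunscreen with nanoparticles of zinc oxide made from the isotope 68Zn), a micro ZnO arm (sunscreen with microparticles of the same oxide), a formulation arm (sunscreen with no ZnO particles) and an untreated arm. The virgin arms held 6 mice each. The pregnant arms held 6 nano ZnO, 5 micro ZnO, 6 formulation and 5 untreated mice. Treated mice received 6 applications within 4 days and livers were taken on day 5. All mice shared single housing with 14 h of light and 10 h of dark, an Elizabethan collar according to the protocol, and death by Xylase and ketamine injection followed by cervical dislocation. The hour of the day at which each mouse was killed is not given in the sources used here, so whether it differed between arms was not tested.

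The clock is a loop of transcription factors. CLOCK and BMAL1, the product of Arntl, activate genes through a DNA element called the E-box, among them the Per and Cry genes, whose products switch the pair off again. REV-ERB alpha and beta repress Arntl and Nfil3. DBP, TEF and HLF, themselves under the clock, activate genes of liver metabolism through the D-box, to which NFIL3 also binds, as a repressor. In liver the transcripts of Dbp and Nr1d1 are known for steep daily rhythms, with Arntl and Nfil3 near the opposite phase. Bhlhe40 encodes a repressor that competes at E-boxes, Wee1 a kinase that delays entry into mitosis, and Nampt the rate-limiting enzyme of NAD salvage.

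RefSeq promoter sequences on GRCm38.p6, running from 250 bases before to 50 after an annotated start, were at hand for 7 of the 9 genes (8 windows, 2 of them for Tef), and not for Bhlhe40 and Wee1. The windows shown are those in which elements of the loop were found, for genes of its PAR-bZIP and REV-ERB arms. Both strands were searched for the E-box CACGTG, its variant CACGTT, the REV-ERB half-site AGGTCA and the D-boxes TTATGTAA and TTACGTAA; no match in these windows overlapped another. CACGTG occurred in both Tef windows and in no other, against 7.15% of all 32851 promoter windows. CACGTT occurred in that of Nr1d1 (4.68% of all windows) and AGGTCA in those of Nfil3, Nr1d2 and Nampt (16.3%). Neither D-box occurred in any of the 8 windows (1.06% of all windows hold one). A match is a string of letters and was not tested as a binding site. The 150 bases before the start follow for 5 windows, 5′ to 3′ along the gene, with the matches in capitals: Tef at chr15:81802523-81802672 and chr15:81811264-81811413 (plus strand), Nr1d1 at chr11:98775378-98775527, Nr1d2 at chr14:18239107-18239256 and Nfil3 at chr13:52981040-52981189 (minus strand). For Nr1d1 and Nfil3 the match lies on the opposite strand and reads AACGTG and TGACCT here.
Tef, first start: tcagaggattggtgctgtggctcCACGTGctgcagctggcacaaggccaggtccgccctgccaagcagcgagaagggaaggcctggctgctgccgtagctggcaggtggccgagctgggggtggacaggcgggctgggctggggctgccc
Tef, second start: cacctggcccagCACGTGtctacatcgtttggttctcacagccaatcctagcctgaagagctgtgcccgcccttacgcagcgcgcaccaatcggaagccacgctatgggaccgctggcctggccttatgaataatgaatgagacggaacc
Nr1d1: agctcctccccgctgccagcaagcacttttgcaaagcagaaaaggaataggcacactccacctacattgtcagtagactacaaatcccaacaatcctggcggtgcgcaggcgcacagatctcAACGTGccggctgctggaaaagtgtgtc
Nr1d2: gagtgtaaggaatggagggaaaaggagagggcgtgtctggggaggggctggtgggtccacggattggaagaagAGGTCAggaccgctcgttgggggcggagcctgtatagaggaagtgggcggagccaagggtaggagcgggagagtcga
Nfil3: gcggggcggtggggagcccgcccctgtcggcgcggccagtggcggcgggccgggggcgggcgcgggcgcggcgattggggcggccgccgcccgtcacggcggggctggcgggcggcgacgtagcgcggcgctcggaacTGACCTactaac

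The values are log2 intensities after RMA normalization by the authors. Array medians were 4.66 to 4.90 in virgin and 3.98 to 4.12 in pregnant mice, so levels were compared within an experiment only. Hepatocyte markers such as Alb (albumin) stood at or above the 99.7th percentile of all tested probe sets in both experiments, as the liver label implies. Markers of other liver cells also moved in virgin mice. A marker is said to rise or fall where limma called its difference from untreated at an adjusted p below 0.05. The share of all probe sets called so in virgin mice was 11.9% for nano ZnO, 4.43% for micro ZnO and 26.5% for formulation. Of 6 endothelial markers, 4 fell in nano ZnO, 5 in micro ZnO and 4 in formulation against untreated livers. Their mean level per array was 5.64 to 5.93 in nano ZnO, 5.62 to 5.98 in micro ZnO and 5.66 to 5.94 in formulation livers, against 6.08 to 6.27 in untreated livers. Of 6 neutrophil markers, 4 rose in nano ZnO and 4 in formulation and 0 in micro ZnO livers, with mean levels of 4.67 to 6.43, 4.67 to 5.53 and 4.07 to 4.69, against 4.26 to 4.60 in untreated livers. Of 4 hepatic stellate markers, 1 fell in nano ZnO, 2 in micro ZnO and 2 in formulation livers, with mean levels of 6.71 to 7.21, 6.60 to 6.94 and 6.72 to 6.99, against 6.93 to 7.21 in untreated livers. Of 2 measured erythroid markers 1 fell in each sunscreen arm. Of 6 hepatocyte markers, 2 rose in nano ZnO, 0 in micro ZnO and 1 in formulation livers. Of 4 measured T and B cell markers, 1 rose in nano ZnO, 0 were called in micro ZnO, and 1 rose and 1 fell in formulation livers. In pregnant mice 2 of the 6 neutrophil markers rose in micro ZnO livers (0.107% of all probe sets were called), with mean levels of 5.56 to 6.84, against 4.55 to 5.15 in untreated livers. The interquartile range of the arrays was 2.90 ± 0.06 in nano ZnO, 2.91 ± 0.03 in micro ZnO and 2.83 ± 0.05 in formulation arrays, against 2.97 ± 0.07 in untreated arrays (SD). The part of these differences in the results below was not tested, except that the interquartile range was also fitted as a covariate. In bulk liver, fewer cells of a type and less RNA per cell cannot be told apart.

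**Figure D1:**
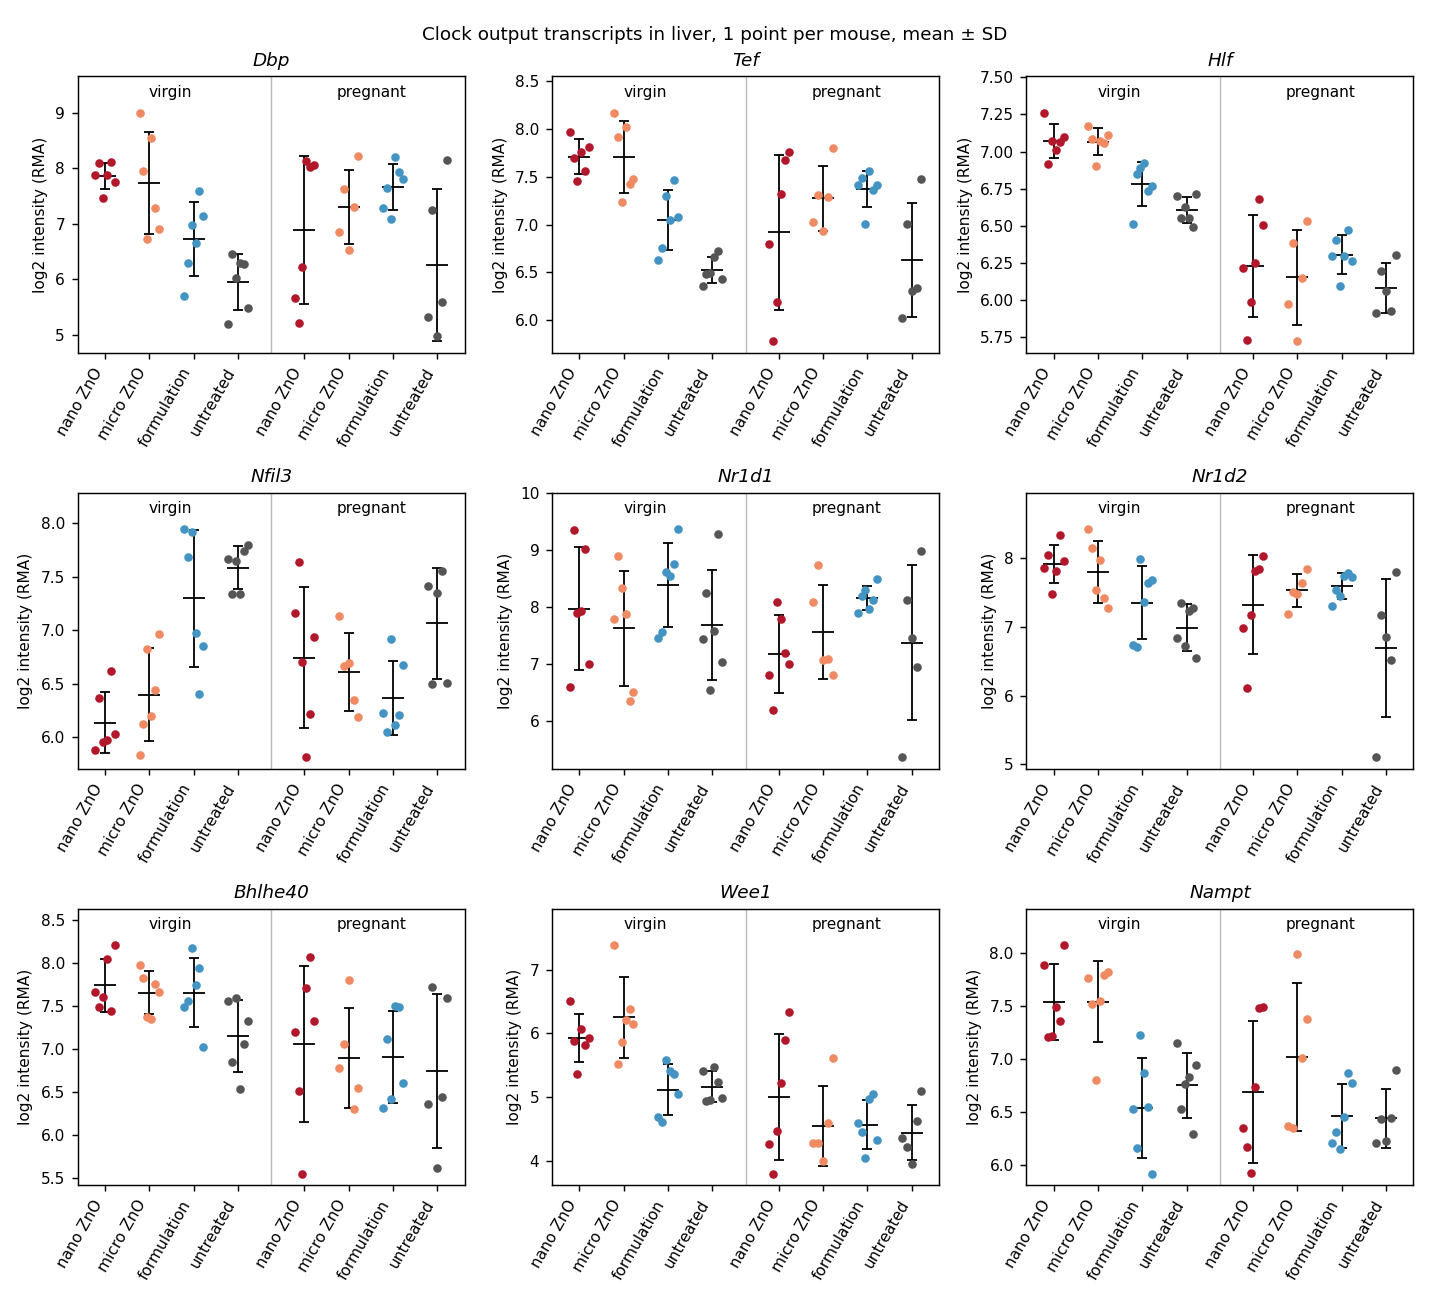
Log2 RMA intensity of the 9 genes (y axes, each on its own range) in nano ZnO, micro ZnO, formulation and untreated livers of virgin (left in each panel) and pregnant mice (right); a point is 1 mouse and bars are mean ± SD. In virgin mice every nano ZnO value of Dbp lay between 7.47 and 8.11, above the untreated values of 5.20 to 6.45, whereas in pregnant mice both groups spread from near 5 to above 8.

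In virgin mice both particle sunscreens were accompanied by a shift of most of the 9 transcripts: the 3 PAR-bZIP activators, Nr1d2, Wee1 and Nampt were higher and Nfil3 was lower than in untreated livers. With limma and Benjamini-Hochberg adjustment over 23410 probe sets (called at an adjusted p below 0.05), 8 of the 9 were called for nano ZnO against untreated (7 higher, 1 lower), where 11.9% of all probe sets were called. For micro ZnO against untreated 7 were called (6 higher, 1 lower), against 4.43% of all probe sets. For formulation against untreated only Tef and Bhlhe40 were called, both higher, 2 of 9 against 26.5% of all probe sets. The median log2 difference of the 9 was 0.76 for nano ZnO, 0.79 for micro ZnO and 0.36 for formulation, beside 0.02, 0.01 and 0.03 over all probe sets. These comparisons share the untreated arrays, and the part of the hour of killing in them was not tested. The values of 6 genes did not overlap between nano ZnO and untreated livers, as was true of 4.96% of all probe sets, and those of 5 genes did not overlap between micro ZnO and untreated livers (3.31%). When the interquartile range entered the model, 7, 6 and 0 of the 9 were called for nano ZnO, micro ZnO and formulation. Leaving out 1 array at a time gave 6 to 8 calls for nano ZnO and 5 to 7 for micro ZnO. For formulation it gave 4 without formulation replicate 1 and 1 without formulation replicate 2, 3, 4 or 5 or untreated replicate 2, 4 or 5.

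**Figure D2:**
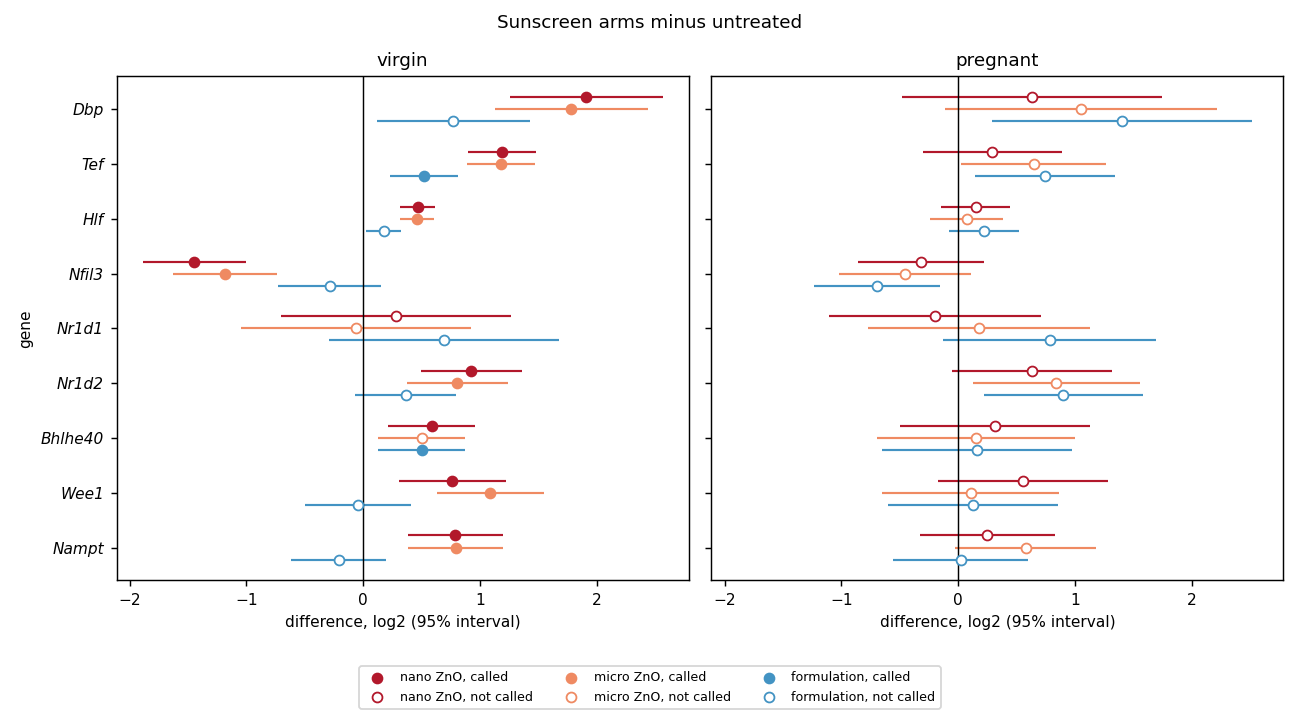
Difference of each sunscreen arm from the untreated arm (x axis, log2, with 95% interval) for the 9 genes in virgin mice (left) and pregnant mice (right); filled points were called at an adjusted p below 0.05. In virgin mice 8 nano ZnO, 7 micro ZnO and 2 formulation points are filled, and in pregnant mice none is.

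Dbp, a PAR-bZIP activator, had the largest log2 difference from untreated of the 9 genes in both particle arms. In virgin livers its log2 level had a lowest, median and highest value of 7.47, 7.88 and 8.11 in nano ZnO, 6.72, 7.62 and 9.0 in micro ZnO and 5.70, 6.82 and 7.59 in formulation, against 5.20, 6.16 and 6.45 in untreated mice. Every particle-treated mouse lay above every untreated mouse, and 4 of the 6 formulation mice did. The log2 differences from untreated were 1.91 ± 0.32 (SE, 3.76-fold, limma adjusted p = 0.000598) for nano ZnO, 1.78 ± 0.32 (3.44-fold, adjusted p = 0.00171) for micro ZnO and 0.77 ± 0.32 (adjusted p = 0.0722, not called) for formulation. The formulation arm thus had a mean between the others, and the difference of nano ZnO from formulation, 1.14 ± 0.32, was called (adjusted p = 0.0468) while that of micro ZnO, 1.01 ± 0.32, was not (adjusted p = 0.0533). The first of these calls was lost without any one of 9 arrays (formulation replicate 1, 2, 4 or 6 or nano ZnO replicate 1, 2, 4, 5 or 6; adjusted p of 0.0542 to 0.114). It was also lost with trended robust moderation (0.0875), over all probe sets (0.0802) and after quantile normalization within each experiment (0.0657). The same held with a replicate block (0.0781) and with all 46 arrays in 1 fit (0.184). The micro ZnO difference from formulation was called without formulation replicate 5 or micro ZnO replicate 3 or 6 (adjusted p of 0.0244 to 0.0395). It was also called with array weights (0.0228) and with dim probe sets left out (0.0396). The formulation difference from untreated was called without formulation replicate 1 (adjusted p = 0.0255) and with the compared groups fitted alone (0.0484).

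Tef, whose product binds the same D-box, had the smallest adjusted p of the 9 genes in both particle comparisons with untreated. Its lowest, median and highest levels were 7.46, 7.73 and 7.97 in nano ZnO, 7.24, 7.70 and 8.17 in micro ZnO and 6.63, 7.06 and 7.47 in formulation, against 6.36, 6.49 and 6.72 in untreated virgin livers. The particle arms did not overlap the untreated arm, and 5 of 6 formulation values lay above it. Tef differed from untreated by 1.19 ± 0.14 with nano ZnO (adjusted p = 2.33e-05), 1.18 ± 0.14 with micro ZnO (adjusted p = 2.48e-05) and 0.52 ± 0.14 with formulation (adjusted p = 0.0096). Its differences from formulation were 0.67 ± 0.14 for nano ZnO (adjusted p = 0.0109) and 0.66 ± 0.14 for micro ZnO (adjusted p = 0.00687), so the arms ran in 3 steps: the particle arms, formulation and untreated. With the interquartile range as covariate the formulation step above untreated was 0.41 and no longer called (adjusted p = 0.4). With all 46 arrays in 1 fit the 3 steps were not called: adjusted p was 0.116 for nano ZnO and 0.079 for micro ZnO against formulation, and 0.0886 for formulation against untreated.

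Hlf moved in the same direction over a smaller range. Its levels ran from 6.92 to 7.26 in nano ZnO, 6.90 to 7.17 in micro ZnO and 6.51 to 6.92 in formulation, against 6.49 to 6.71 in untreated virgin livers. No particle-treated value overlapped the untreated ones. The differences from untreated were 0.47 ± 0.07 for nano ZnO (adjusted p = 0.00026), 0.46 ± 0.07 for micro ZnO (adjusted p = 0.000557) and 0.17 ± 0.07 for formulation (adjusted p = 0.0691). The last was called without formulation replicate 1 (adjusted p = 0.0179), with dim probe sets left out (0.0462) and after quantile normalization within each experiment (0.01). Both particle arms were 0.29 ± 0.07 above formulation (adjusted p = 0.0238 for nano ZnO and 0.016 for micro ZnO), the nano ZnO call being lost without formulation replicate 1 or 5 or nano ZnO replicate 1 or 6 (adjusted p of 0.051 to 0.0716). Both calls against formulation were lost with the interquartile range as covariate (adjusted p = 0.115 for nano ZnO and 0.152 for micro ZnO), after quantile normalization within each experiment (0.0531 and 0.0553) and with all 46 arrays in 1 fit (0.164 and 0.12).

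Nfil3, the repressor at D-boxes, was the only one of the 9 that was called lower. Its lowest, median and highest levels were 5.89, 6.00 and 6.61 in nano ZnO, 5.83, 6.32 and 6.97 in micro ZnO and 6.40, 7.33 and 7.94 in formulation, against 7.33, 7.65 and 7.79 in untreated virgin livers. Neither particle arm overlapped the untreated arm, whereas the formulation arm spanned it, with 3 mice below and 2 above all untreated mice. The log2 difference from untreated was -1.45 ± 0.22 for nano ZnO (adjusted p = 0.000215), -1.18 ± 0.22 for micro ZnO (adjusted p = 0.00207) and -0.29 ± 0.22 for formulation (adjusted p = 0.325). Against formulation the differences were -1.16 ± 0.22 for nano ZnO (adjusted p = 0.00545) and -0.90 ± 0.22 for micro ZnO (adjusted p = 0.0138).

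The 2 REV-ERB genes differed from each other in spread. Nr1d2 ran from 7.48 to 8.33 in nano ZnO, 7.27 to 8.42 in micro ZnO and 6.71 to 7.99 in formulation, against 6.54 to 7.35 in untreated virgin livers. It was above untreated: 0.93 ± 0.21 for nano ZnO (adjusted p = 0.00578) and 0.81 ± 0.21 for micro ZnO (adjusted p = 0.0274), while formulation gave 0.36 ± 0.21 (adjusted p = 0.197). The micro ZnO call was lost when any one of micro ZnO replicates 1, 2 and 4 and untreated replicates 1, 3 and 6 was left out (adjusted p of 0.0539 to 0.0824). It was also lost over all probe sets (0.0523), with a replicate block (0.0639), with the interquartile range as covariate (0.0684) and with all 46 arrays in 1 fit (0.124). Neither particle arm was called against formulation (0.56 ± 0.21 for nano ZnO, adjusted p = 0.14; 0.44 ± 0.21 for micro ZnO, adjusted p = 0.21).

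Nr1d1 was not called in any comparison. In virgin livers it ran from 6.61 to 9.36 in nano ZnO, 6.36 to 8.91 in micro ZnO and 7.46 to 9.37 in formulation, against 6.56 to 9.28 in untreated mice. All arms overlapped, and the lowest values of the nano ZnO, micro ZnO and untreated arms lay below every formulation value. Its SD within virgin arms was 0.74 to 1.08. The differences from untreated were 0.28 ± 0.48 for nano ZnO (95% interval -0.71 to 1.27), -0.06 ± 0.48 for micro ZnO (-1.05 to 0.92) and 0.69 ± 0.48 for formulation (-0.29 to 1.68), intervals that hold changes as large as that of Nr1d2.

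Bhlhe40, the E-box repressor, had mean levels of 7.74 in nano ZnO, 7.65 in micro ZnO and 7.66 in formulation, against 7.15 in untreated virgin livers. It ran from 7.45 to 8.20 in nano ZnO, 7.35 to 7.98 in micro ZnO and 7.02 to 8.17 in formulation, against 6.54 to 7.60 in untreated mice, and each arm overlapped the untreated one. The difference from untreated was 0.59 ± 0.18 for nano ZnO (adjusted p = 0.0341), 0.50 ± 0.18 for micro ZnO (adjusted p = 0.108) and 0.50 ± 0.18 for formulation (adjusted p = 0.0414). Both calls were weak: the nano ZnO call was lost without nano ZnO replicate 4 or 6 or untreated replicate 2, 4 or 5 (adjusted p of 0.061 to 0.0961), and the formulation call without formulation replicate 2, 3, 4 or 5 or untreated replicate 2, 4 or 5 (adjusted p of 0.0557 to 0.117). With the interquartile range as covariate the formulation difference was 0.79 and not called (adjusted p = 0.138). With all 46 arrays in 1 fit neither was called (adjusted p = 0.223 for nano ZnO and 0.226 for formulation). Against formulation it differed by 0.08 ± 0.18 with nano ZnO (95% interval -0.29 to 0.46) and by 0.00 ± 0.18 with micro ZnO (-0.37 to 0.37).

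Wee1 and Nampt were higher in both particle arms than in either of the other arms. Wee1 had a lowest, median and highest level of 5.35, 5.90 and 6.50 in nano ZnO, 5.52, 6.18 and 7.38 in micro ZnO and 4.60, 5.20 and 5.58 in formulation, against 4.93, 5.11 and 5.46 in untreated virgin livers. The formulation mean lay 0.05 below the untreated one (-0.05 ± 0.22), with values on both sides of the untreated range. The log2 differences of Wee1 from untreated were 0.76 ± 0.22 for nano ZnO (adjusted p = 0.0254) and 1.09 ± 0.22 for micro ZnO (adjusted p = 0.00558). From formulation they were 0.81 ± 0.22 for nano ZnO (adjusted p = 0.0417) and 1.14 ± 0.22 for micro ZnO (adjusted p = 0.00395). The nano ZnO call against untreated was lost without nano ZnO replicate 1 or 4 or untreated replicate 3 (adjusted p of 0.0539 to 0.0646). That against formulation was lost without formulation replicate 1, 2, 5 or 6 or nano ZnO replicate 1, 2, 4, 5 or 6 (adjusted p of 0.057 to 0.111). With the interquartile range as covariate the nano ZnO adjusted p was 0.0889 against untreated and 0.122 against formulation. With all 46 arrays in 1 fit it was 0.1 and 0.15.

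Nampt had a lowest, median and highest level of 7.21, 7.42 and 8.08 in nano ZnO, 6.81, 7.66 and 7.83 in micro ZnO and 5.92, 6.54 and 7.22 in formulation, against 6.29, 6.80 and 7.15 in untreated virgin livers. All nano ZnO mice and 5 of 6 micro ZnO mice lay above every untreated mouse. Nampt exceeded untreated by 0.79 ± 0.20 in both particle arms (adjusted p = 0.0109 for nano ZnO and 0.0219 for micro ZnO). It exceeded formulation by 1.00 ± 0.20 in both (adjusted p = 0.00711 and 0.00418), while formulation differed from untreated by -0.21 ± 0.20 (adjusted p = 0.442). The micro ZnO call against untreated was lost on leaving out micro ZnO replicate 1 or untreated mouse 5 (adjusted p = 0.0559 and 0.0593). It was also lost with all 46 arrays in 1 fit (adjusted p = 0.0806). With the interquartile range as covariate the differences from formulation were 0.75 for nano ZnO (adjusted p = 0.0655) and 0.70 for micro ZnO (adjusted p = 0.0933).

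Across the 9 genes, nano ZnO against formulation gave 6 calls in virgin mice (5 higher, 1 lower; 3.25% of all probe sets) and micro ZnO against formulation gave 5 (4 higher, 1 lower; 6.83% of all probe sets). These comparisons share the formulation arrays. Leaving out formulation replicate 1 or nano ZnO replicate 1 or 6 reduced the nano ZnO count to 3, and the interquartile range as covariate reduced both counts to 3. The particle sizes were not told apart: nano ZnO against micro ZnO called 0 of the 9 (0 of 23410 probe sets, 0%), 0 had an unadjusted limma p under 0.05 (4.72% of all probe sets), and the differences ran from -0.33 ± 0.22 for Wee1 (95% interval -0.78 to 0.13) to 0.34 ± 0.48 for Nr1d1 (-0.64 to 1.33). For Dbp the interval was -0.53 to 0.78 and for Tef -0.29 to 0.30.

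**Figure D3:**
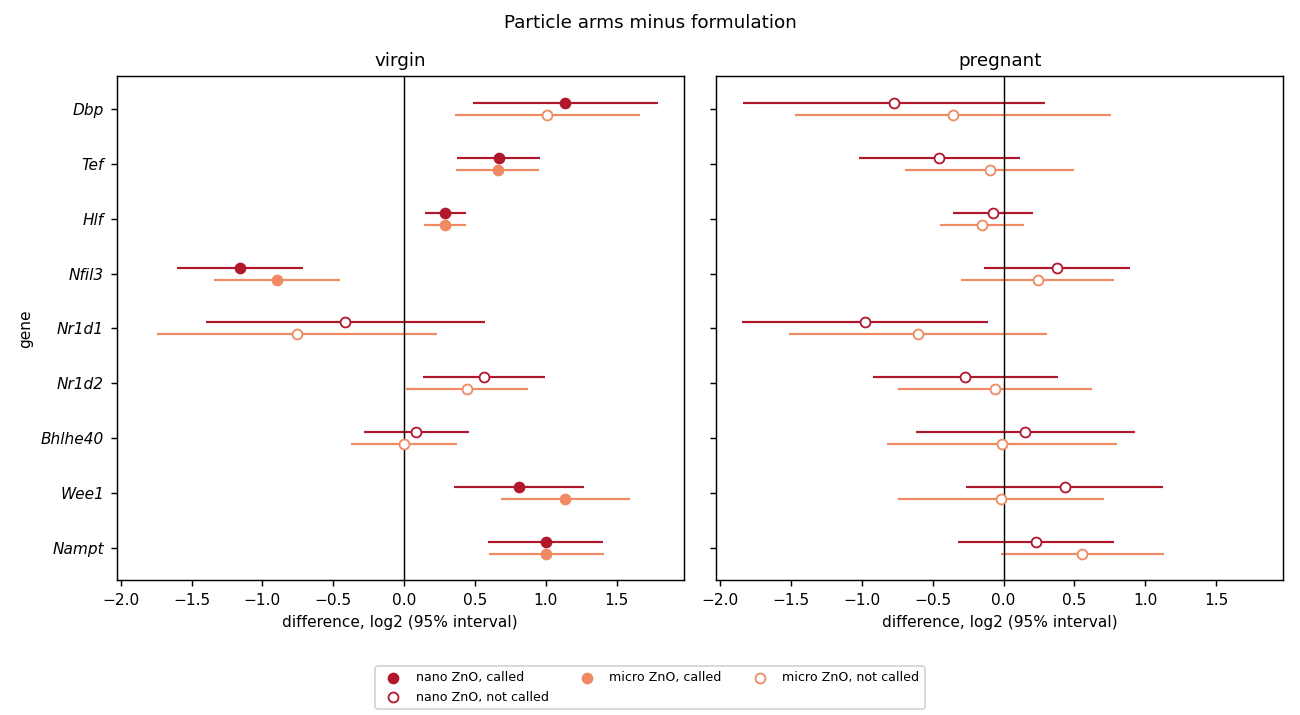
Difference of the nano ZnO and micro ZnO arms from the formulation arm (x axis, log2, with 95% interval) for the 9 genes in virgin mice (left) and pregnant mice (right); filled points were called at an adjusted p below 0.05. In virgin mice Wee1 and Nampt stand to the right of 0 in both particle arms and Nfil3 to the left, and in pregnant mice every interval but that of Nr1d1 with nano ZnO includes 0.

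In pregnant mice none of the 9 genes was called in any of the 6 comparisons. Against untreated, 0 were called for nano ZnO (0.0214% of all probe sets), micro ZnO (0.107%) and formulation (0.0598%), and 0, 2 and 4 of the 9 had an unadjusted limma p under 0.05, as had 10.2%, 9.08% and 12.3% of all probe sets. Against formulation, 0 were called for nano ZnO (0% of all probe sets) and micro ZnO (0%), with 1 and 0 at an unadjusted p under 0.05 (3.07% and 7% of all probe sets), and nano ZnO against micro ZnO likewise gave 0 (0% of all probe sets), with 0 at an unadjusted p under 0.05 (4.64% of all probe sets).

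The spread was wide within some pregnant arms. In the 6 nano ZnO mice Dbp was 5.22 at the lowest, 7.12 at the median and 8.14 at the highest. It was 6.86, 7.62, 6.53, 7.30 and 8.23 in the 5 micro ZnO mice and 7.09, 7.73 and 8.21 (lowest, median and highest) in formulation mice, against 5.32, 7.24, 4.98, 5.59 and 8.15 in the 5 untreated mice. Nano ZnO and untreated mice therefore covered both ends of the range, with SDs of 1.34 in nano ZnO and 1.37 in untreated livers, whereas formulation mice (SD 0.42) were all in its upper part. The differences of Dbp from untreated were 0.63 ± 0.54 for nano ZnO (95% interval -0.48 to 1.75), 1.05 ± 0.56 for micro ZnO (-0.11 to 2.21) and 1.41 ± 0.54 for formulation (0.29 to 2.52, adjusted p = 0.325).

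Tef in pregnant livers ran from 5.78 to 7.76 in nano ZnO, 6.94 to 7.81 in micro ZnO and 7.01 to 7.56 in formulation, against 6.02 to 7.48 in untreated mice. Hlf ran from 5.73 to 6.68, 5.72 to 6.53 and 6.09 to 6.47 in the same arms, against 5.91 to 6.30 in untreated mice. Nfil3 ran from 5.81 to 7.63 in nano ZnO, 6.19 to 7.14 in micro ZnO and 6.05 to 6.91 in formulation, against 7.42, 6.49, 7.35, 7.55 and 6.50 in the 5 untreated mice. All of these arms overlapped. The formulation arm had the highest mean of Dbp, Tef, Hlf, Nr1d1 and Nr1d2 and the lowest mean of Nfil3 in pregnant mice, with log2 differences from untreated of 0.75 ± 0.29 for Tef, 0.90 ± 0.33 for Nr1d2 and -0.70 ± 0.26 for Nfil3 that were not called (limma adjusted p of 0.329, 0.315 and 0.321).

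Wee1 in pregnant livers ran from 3.80 to 6.34 in nano ZnO, 3.99 to 5.61 in micro ZnO and 4.04 to 5.05 in formulation, against 3.94 to 5.09 in untreated mice. Nampt ran from 5.93 to 7.49, 6.35 to 8.0 and 6.15 to 6.87 in the same arms, against 6.21 to 6.89 in untreated mice. The difference of Nampt from formulation was 0.56 ± 0.28 for micro ZnO (95% interval -0.02 to 1.13) and 0.23 ± 0.27 for nano ZnO (-0.32 to 0.78). Nr1d1 ran from 6.20 to 8.09 in nano ZnO, 6.81 to 8.75 in micro ZnO and 7.89 to 8.49 in formulation, against 5.37 to 8.99 in untreated mice. Nr1d2 ran from 6.11 to 8.03, 7.19 to 7.84 and 7.31 to 7.79, against 5.10 to 7.80 in untreated mice, and Bhlhe40 from 5.55 to 8.07, 6.30 to 7.80 and 6.31 to 7.50, against 5.61 to 7.72 in untreated mice. For these 3 genes too, every sunscreen arm overlapped the untreated arm.

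Whether the response differed between pregnant and virgin mice was tested directly, as the pregnant difference minus the virgin difference in a joint limma model of the 8 groups. None of the 9 genes was called. The share of all probe sets called was 0.0427% for nano ZnO against untreated, 0.047% for micro ZnO against untreated, 0.145% for formulation against untreated, 0.00854% for nano ZnO against formulation and 0.226% for micro ZnO against formulation, and 2, 2, 0, 6 and 5 of the 9 had an unadjusted p under 0.05, as had 6.26%, 7.43%, 10.2%, 8.79% and 10.6% of all probe sets. The largest difference of responses relative to its error was that of Nfil3 for nano ZnO against formulation, 1.53 ± 0.35 (adjusted p = 0.142): nano ZnO minus formulation was 0.38 in pregnant and -1.16 in virgin mice. It was called without virgin formulation replicate 5 (adjusted p = 0.0444) or pregnant nano ZnO replicate 4 (adjusted p = 0.0367), and with the interquartile range as covariate (1.70, adjusted p = 0.0428). For the same contrast the values were -1.91 ± 0.64 for Dbp (adjusted p = 0.345) and -1.12 ± 0.32 for Tef (adjusted p = 0.253). The spread within all 8 groups enters these errors. For Dbp it was wider in pregnant than in virgin mice in nano ZnO (SD 1.34 and 0.24) and untreated livers (1.37 and 0.50). In micro ZnO (0.66 and 0.92) and formulation livers (0.42 and 0.67) it was narrower. The absence of a call in pregnant mice does not by itself show a difference from virgin mice.

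The mice of one arm also differed from each other in a shared way. With group means removed, the deviation of Dbp was related to that of the other 8 genes by permuting arrays within groups (100000 permutations, two-sided, 16 relations adjusted together). In virgin mice (24 arrays) Dbp deviated with Tef (Pearson r = 0.87, Spearman rho = 0.77; permutation p = 2e-05 and 0.00034, adjusted p = 0.00016 and 0.00136) and with Nr1d2 (r = 0.82, rho = 0.83; p = 3e-05 for each, adjusted p = 0.00016 and 0.000213). It deviated against Nfil3 (r = -0.66, rho = -0.59; permutation p = 0.00325 and 0.0106, adjusted p = 0.0065 and 0.0185). The relation to Nr1d1 was weaker (r = 0.45, rho = 0.53; permutation p = 0.0358 and 0.00926, adjusted p = 0.052 and 0.0185). Those to Wee1 (r = 0.49, rho = 0.37; permutation p = 0.0503 and 0.106, adjusted p = 0.0671 and 0.131), Hlf (r = 0.17, rho = -0.08; p = 0.454 and 0.714, adjusted p = 0.519 and 0.714), Bhlhe40 (r = -0.03, rho = -0.17; p = 0.901 and 0.439, adjusted p = 0.952 and 0.502) and Nampt (r = 0.01, rho = -0.15; p = 0.952 and 0.519, adjusted p = 0.952 and 0.553) did not pass. Without the 2 arrays farthest from the median of Dbp, r was 0.82 for Tef, 0.76 for Nr1d2, -0.55 for Nfil3, 0.44 for Nr1d1 and 0.23 for Wee1, and the first 3 of these still passed (adjusted permutation p of 0.0016, 0.00256 and 0.027).

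In pregnant mice (22 arrays) the relation to Dbp passed for 7 of the 8 genes. Other probe sets were not tested in this way in either experiment. The share of all probe sets that would pass is therefore not known. The Pearson r was 0.91 for Tef, 0.80 for Nr1d2, 0.79 for Wee1, 0.77 for Hlf and -0.79 for Nfil3 (permutation p of 2e-05, 0.0006, 0.00015, 4e-05 and 0.00039; adjusted p of 0.00016, 0.00137, 0.00048, 0.00016 and 0.00104). Spearman's rho for these 5 genes was 0.91, 0.83, 0.79, 0.81 and -0.75 (permutation p of 4e-05, 0.001, 0.00056, 4e-05 and 0.0011; adjusted p of 0.000213, 0.00251, 0.00179, 0.000213 and 0.00251). Bhlhe40 gave r = 0.62 and rho = 0.62 (permutation p = 0.014 and 0.0115, adjusted p = 0.025 and 0.0185) and Nampt gave r = 0.53 and rho = 0.56 (permutation p = 0.0249 and 0.0195, adjusted p = 0.0399 and 0.0283). Nr1d1 gave r = 0.50 and rho = 0.44 (permutation p = 0.0725 and 0.0857, adjusted p = 0.0892 and 0.114). Without the 2 arrays farthest from the median of Dbp, r stayed between 0.70 and 0.88 for Tef, Nr1d2, Wee1 and Hlf and was -0.72 for Nfil3, whereas it was 0.57 for Bhlhe40 (adjusted p = 0.0616) and 0.45 for Nampt (adjusted p = 0.126), which then no longer passed, and 0.28 for Nr1d1. The mice with high Dbp within an arm were thus mice with high Tef and Nr1d2 and low Nfil3 in both experiments.

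**Figure D4:**
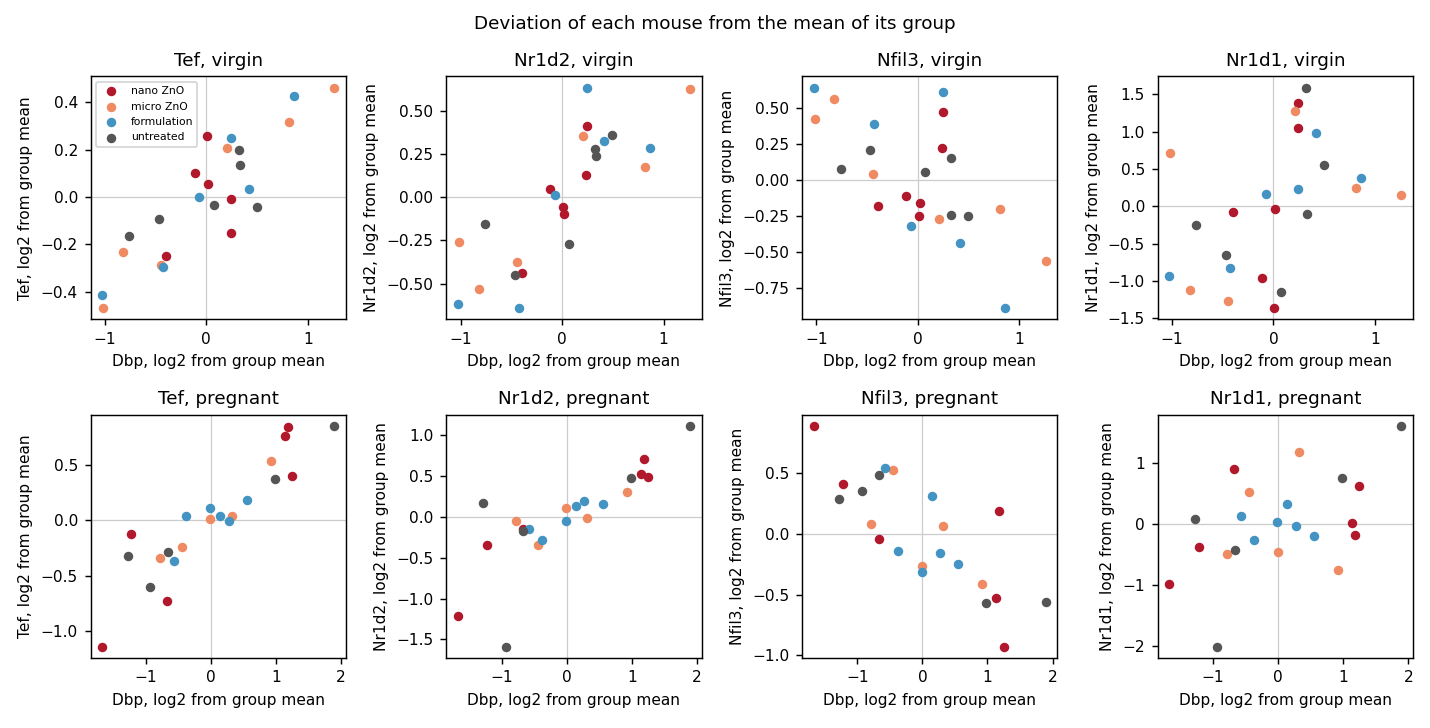
Deviation of each mouse from the mean of its arm, in log2 units, for Dbp (x axes) against Tef, Nr1d2, Nfil3 and Nr1d1 (y axes) in virgin mice (24 points a panel, top) and pregnant mice (22 points a panel, bottom), coloured by arm. Tef and Nr1d2 rise with Dbp (r of 0.80 to 0.91), Nfil3 falls (r of -0.66 and -0.79) and Nr1d1 scatters (r of 0.45 and 0.50).

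The genes most like 3 of these transcripts were sought among 19929 genes, by the mean of the Pearson r over the 24 virgin and the 22 pregnant arrays, as a description that includes the differences between arms. For Dbp they were Per3 (r = 0.96 in virgin and 0.93 in pregnant mice), a Period gene, Ciart (0.88 and 0.89), a circadian repressor, and Bnip3 (0.87 and 0.77), a mitophagy receptor. For Nfil3 they were Arntl (0.91 and 0.83), Denn2b (0.90 and 0.82) and Slc16a1 (0.86 and 0.83), a monocarboxylate transporter. Nr1d1 had less close neighbours, Jade1 (0.73 and 0.72), Fbxo21 (0.72 and 0.66) and Trib3 (0.77 and 0.60).

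Of the core clock list, 15 of 18 genes were measured. In virgin mice 4 rose and 3 fell with nano ZnO, 4 rose and 1 fell with micro ZnO, and 4 rose and 1 fell with formulation against untreated. Of all probe sets 11.9%, 4.43% and 26.5% were called in these comparisons, so that the 5 of 15 called with formulation are near the share of all probe sets. The list's median was 0.19, 0.14 and -0.02, beside 0.02, 0.01 and 0.03 over all probe sets. Ciart rose by 2.25 ± 0.31 with nano ZnO, 2.59 ± 0.31 with micro ZnO and 0.96 ± 0.31 with formulation (limma adjusted p = 9.14e-05, 2.06e-05 and 0.0219), to means of 7.19, 7.54 and 5.91, against 4.94 in untreated livers. Per3 rose by 1.18 ± 0.17, 1.14 ± 0.17 and 0.52 ± 0.17, and Per1 by 1.00 ± 0.24, 0.92 ± 0.24 and 0.79 ± 0.24. Arntl, the partner of Clock and a REV-ERB target, fell by 1.67 on the log2 scale with nano ZnO and by 1.49 with micro ZnO (SE 0.26 each, adjusted p = 0.000257 and 0.00118), to means of 5.41 and 5.59, against 7.08 in untreated livers. Its difference with formulation was -0.67 ± 0.26 (adjusted p = 0.052). Clock fell by 0.50 with nano ZnO and by 0.47 with formulation. Against formulation, 2 of the 15 rose and 1 fell with nano ZnO, and 3 rose and 0 fell with micro ZnO, beside 3.25% and 6.83% of all probe sets called.

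Of other clock outputs 9 of 10 were measured, and 5 rose with nano ZnO, 4 with micro ZnO and 1 with formulation, with 0 falling (medians 0.62, 0.54 and 0.34), beside the same 11.9%, 4.43% and 26.5% of all probe sets called. Usp2, a deubiquitinase with a strong daily rhythm, rose by 1.60 ± 0.27 with nano ZnO and 1.70 ± 0.27 with micro ZnO. Coq10b rose by 1.12 ± 0.22 and 0.88 ± 0.22, and Upp2, a uridine phosphorylase, by 0.82 ± 0.19 and 0.71 ± 0.19. Rgs16, a regulator of G-protein signalling, was the one that rose with formulation (1.49 ± 0.52, limma adjusted p = 0.0371). Against formulation, 0 of the 9 were called with nano ZnO and 2 rose with micro ZnO, beside 3.25% and 6.83% of all probe sets called.

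Of the PAR-bZIP targets in liver, 5 of 8 were measured, and 3 rose with nano ZnO, 2 rose with micro ZnO and 1 fell with formulation (medians 0.61, 0.61 and 0.17), beside 11.9%, 4.43% and 26.5% of all probe sets called. Alas1, the rate-limiting enzyme of haem synthesis, rose by 1.86 ± 0.42 with nano ZnO and 1.48 ± 0.42 with micro ZnO (limma adjusted p = 0.00517 and 0.0405). Nr1i3, which encodes the xenobiotic receptor CAR, rose by 0.61 ± 0.12 and 0.66 ± 0.12. Cyp7a1, the rate-limiting enzyme of bile acid synthesis, rose by 1.13 ± 0.24 with nano ZnO. Cyp2c50 fell by 0.24 with formulation. Against formulation, 2 of the 5 rose with nano ZnO and 1 with micro ZnO, with 0 falling, beside 3.25% and 6.83% of all probe sets called.

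Of the REV-ERB targets, Nfil3 aside, 8 of 11 were measured, and 5 fell with nano ZnO, 4 with micro ZnO and 3 with formulation, with 0 rising (medians -0.48, -0.56 and -0.24), beside 11.9%, 4.43% and 26.5% of all probe sets called; 3 of 8 with formulation is not far above its share. Arntl, Clock and Cry1 stand in this list and in the core clock list. Elovl3, a fatty acid elongase, fell by 1.34 with nano ZnO, 1.12 with micro ZnO and 0.78 with formulation on the log2 scale (SE 0.20 each; limma adjusted p = 0.000189, 0.00126 and 0.0051). Insig2, a regulator of sterol sensing, fell by 0.75 and 0.72 with nano ZnO and micro ZnO. G6pc, the glucose-releasing phosphatase, fell by 0.98 with micro ZnO. Against formulation, 1 of the 8 fell with nano ZnO and 1 with micro ZnO, with 0 rising, beside 3.25% and 6.83% of all probe sets called.

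Nampt was set beside 15 measured genes, of 16, of NAD synthesis and use. With nano ZnO 1 rose and 4 fell, with micro ZnO 1 rose and 0 fell, and with formulation 2 rose and 6 fell against untreated (medians -0.03, -0.01 and -0.15), beside 11.9%, 4.43% and 26.5% of all probe sets called. For micro ZnO the count of 1 of 15 is near the share of all probe sets. Nnmt, which methylates nicotinamide, rose by 1.04 ± 0.27 with nano ZnO, 1.29 ± 0.27 with micro ZnO and 0.83 ± 0.27 with formulation. Nmrk1, a nicotinamide riboside kinase, fell by 0.68 with formulation against untreated and stood 0.87 ± 0.16 above formulation with nano ZnO and 1.04 ± 0.16 above it with micro ZnO (limma adjusted p = 0.00503 and 0.000567). Nmnat1, which makes NAD from its mononucleotide in the nucleus, fell by 0.53 with formulation and stood 0.41 ± 0.08 and 0.44 ± 0.08 above formulation in the particle arms.

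Wee1 was set beside 9 measured genes, of 10, of the G2/M transition. Against untreated, limma called 0 with nano ZnO and 0 with micro ZnO, with 1 each at an unadjusted p under 0.05 (28.3% and 21.3% of all probe sets). With formulation 1 of 9 was called: Ccnb2, a B-type cyclin, rose by 0.21 ± 0.07. Of all probe sets 11.9%, 4.43% and 26.5% were called in these comparisons, so none of the counts exceeds its share. Against formulation Cdk2, a cyclin-dependent kinase, was higher by 0.32 ± 0.09 in both particle arms (limma adjusted p = 0.0471 for nano ZnO and 0.0266 for micro ZnO). It was the 1 of 9 called in each, beside 3.25% and 6.83% of all probe sets. In pregnant mice limma called 0 of the 58 measured genes of these 6 lists in any of the 6 comparisons. Of 348 tests pooled, 43 (12.4%) had an unadjusted p under 0.05, beside 3.07% to 12.3% of all probe sets by comparison. The lists differed. Against untreated, 7 of 15 core clock genes had such a p with formulation, 6 with micro ZnO and 2 with nano ZnO. The shares of all probe sets were 12.3%, 9.08% and 10.2%. In the same order 4, 2 and 2 of 8 REV-ERB targets had one. Of the 9 G2/M genes 0 had one in any of the 6 comparisons.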

How the data were processed

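RNA from 46 livers was measured on 46 Affymetrix arrays. The deposited values are log2 intensities made by the authors with RMA (background correction, quantile normalization, probe summarization), per the submitters' processing notes, without a version. Of 35512 probe sets, 23410 had a platform gene symbol (1621 of them several) and were tested. All 46 columns were used.

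A linear model with 4 arms was fitted within each experiment (R 4.3.3, limma 3.58.1, empirical Bayes), and a joint model of 8 groups gave differences of responses. Tests were two-sided, adjusted by Benjamini-Hochberg over 23410 probe sets, and called at an adjusted p under 0.05. The number of arrays limits the precision. Labels call the arrays biological replicates. The 9 genes, the lists and the naming rule (the 9 always; up to 4 called genes of a list with the largest change; the 3 most like genes for Dbp, Nfil3 and Nr1d1) were chosen with earlier results of these data known. On simulated data with 100 probe sets changed 1.5-fold and 100 changed 2-fold, 93 and 99 were found for virgin nano ZnO against untreated (9 false) and 85 and 99 for the pregnant comparison (13 false). The changed probe sets were drawn at random, and the noise was independent between probe sets. These rates were not estimated for the 9 genes, whose spread can be wide. For Dbp the SE in the pregnant comparison was 0.54. Replicate numbers were not treated as pairs. Permutations used numpy 2.4.6 under Python 3.11.15. Alternatives covered moderation, filters, normalization, array weights, fitted groups, covariates and omitted arrays.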

Additional observations from a re-analysis of the deposited data

Results flagged for a closer look

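Among 72 groups of 5 or 6 values (9 genes in 8 groups), 2 held a mouse far from the others of its group by Dixon's ratio of gap to range, with a 95% critical value of 0.625 for 6 mice. Chance alone puts about 1 group in 20 past it. Nampt in virgin micro ZnO replicate 3 was 6.81, below the 7.52 to 7.83 of the other 5 mice (ratio 0.700). Tef in pregnant formulation replicate 3 was 7.01, below the 7.36 to 7.56 of the other 5 (ratio 0.646).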

How the results depend on the processing

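No called value of the 9 genes changed direction under any alternative run. Of 28 called differences, 28 stayed called with dim probe sets left out, 27 with array weights, 26 with the compared groups fitted alone, 24 with trended robust moderation, 24 after quantile normalization within each experiment, 23 over all probe sets, 23 with a replicate block, 19 with the interquartile range as covariate and 16 with all 46 arrays in 1 fit. For formulation against untreated in virgin mice, 2 calls became 1 with trended robust moderation, all probe sets, array weights or the replicate block. They became 3 with dim probe sets left out or after quantile normalization within each experiment, where Hlf was also called. With the compared groups fitted alone Dbp was called and Bhlhe40 was not. The count was 0 with the interquartile range as covariate or all 46 arrays in 1 fit, and ran from 1 to 4 with 1 array left out. For micro ZnO against formulation 5 calls became 3 with that covariate, 3 with all 46 arrays and 6 with dim probe sets left out or array weights. For nano ZnO against formulation 6 became 3 with that covariate and 2 with all 46 arrays, and ran from 3 to 6 with 1 array left out. The difference of responses between pregnant and virgin mice for nano ZnO against formulation had 1 call with that covariate and 0 to 1 with 1 array left out, where it had 0. The cause was not tested. Without replicates 3 and 4 of pregnant micro ZnO, 0 of the 9 were called in the comparisons with that arm. With the group mean of each probe set removed, same-numbered arrays of different arms correlated at -0.35 to 0.20 in virgin and -0.15 to 0.23 in pregnant mice. The correlation was over 0.1 for 1 of 36 virgin and 12 of 31 pregnant pairs. Arrays with different numbers were not correlated in this way for comparison, so whether a number marks a pair was not settled. Another probe set per gene could not be tried, since each gene had 1. A shorter promoter window of 150 bases lost the Nampt half-site.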
